A study of Drosophila melanogaster with 48 samples.

Results

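The sites described here are places inside genes where the transcription factor Zelda (Zld) was found in larval brains of both a condition titled brat and a condition titled UAS-HA-Zld, named for a transgene that supplies extra Zld. They were chosen as distinct intervals of the brat peak list on chromosome arms 2L, 2R, 3L, 3R and X that share at least 1 bp with a peak of the UAS-HA-Zld list, and whose midpoint lies inside an annotated gene and more than 500 bp from every gene end. There were 2490 such sites among 7644 peaks of the whole brat list, 7507 of them on the 5 arms used. Of those 7507 peaks 78.6% shared bases with the other list, and of the 5897 shared peaks 42.2% lay inside genes by this rule. The sites were thus chosen by the called peaks of both lists and by position, and these shares carry no test.

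The series holds 48 CUT&RUN samples of Drosophila melanogaster, of which 4 probed Zld in larval brains. In CUT&RUN an antibody brings a nuclease to the protein of interest, and the DNA fragments it releases are sequenced, which gives a high coverage at bound places. Each condition has 2 replicates and 1 peak list, so nothing below could be set against the spread between replicates. Third-instar larvae kept at 18°C spent their last 24 h at 33°C. Each reaction pooled 50 brains. The labels give both conditions a single genotype, brat11/DF with Tub-Gal80ts, together with UAS-HA-Zld/WorGal4. It names mutant brat alleles, a temperature-sensitive repressor of Gal4, the Gal4-driven HA-tagged Zld and a Gal4 line driven by the neuroblast gene worniu. Brat is a translational repressor whose loss lets type II neuroblasts accumulate. Whether the brat condition lacks the transgene therefore rests on the titles alone, and the IgG brain samples were not analysed here. The labels name type II neuroblasts as the cell type, but the peak lists hold no expression, so this was not checked, and more bound cells cannot be told apart from more binding per cell.

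Zld is a pioneer factor: it can bind DNA wrapped in nucleosomes and open it for other factors, and it is best known for this role in the early embryo. In the larval brain it is expressed in neuroblasts, the neural stem cells. Enhancers of fly developmental genes often lie in introns, and long regulatory genes commonly also have several alternative promoters inside their outermost span. The gene table used here gives only the outermost start and end of each gene, without strand, exons or single transcripts. A site inside a gene may therefore be intronic, exonic or at an alternative promoter, and these could not be separated. No genome sequence was used, so no sequences or motifs are given.

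The strongest sites lay in genes of varied function, from transcription factors to translation and the cytoskeleton. The fold enrichment of a peak is the authors' value, the ratio of the fragment pileup at the strongest summit to the local background, and it ranks peaks only within its own list. The pileups were recovered from the deposited values and give the number of fragments on which each fold rests. Inside vri, which encodes a transcription factor of the circadian clock, the peak at 2L, 5305017 to 5307128 (dm6) reached a fold of 46.6 on 5392 fragments in brat, and 14.4 on 2417 fragments in UAS-HA-Zld. It lay 5150 bp from the nearest gene end and was the brat site with the highest −log10 q. Inside nrv2, the gene of a sodium pump subunit used in glia, the peak at 2L, 6793664 to 6795413 had the highest brat fold of all 2490 sites, 58.8 on 3171 fragments, against 14.7 on 1379 fragments with UAS-HA-Zld. The site in Cph, a zinc-finger transcription factor gene, at X, 7194523 to 7196575, had folds of 49.0 and 17.1 in that order and lay 29098 bp from every gene end. These sites were near the top of the brat list and stood at places 41, 133 and 70 among the same 2490 sites by UAS-HA-Zld −log10 q.

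The remainder of the brat top 10 included grh, the gene of Grainy head, another pioneer-like factor of neuroblasts. Its peak at 2R, 17821900 to 17822958 had a single summit, with a fold of 33.8 on 3359 fragments in brat and 16.6 on 2276 fragments with UAS-HA-Zld. The peaks in kek5, of the Kekkon family of membrane proteins, and in the translation initiation factor gene eIF4A had brat folds of 41.3 and 37.7. The site in chic, the profilin gene, spanned 4203 bp with 6 summits and a brat fold of 30.0. These 3 intervals cover a gene end although their midpoints lie 943, 823 and 1833 bp away from one. The insulin receptor gene InR held a site with a brat fold of 17.3 and a UAS-HA-Zld fold of 6.32. The histone demethylase gene Kdm4B held one with folds of 21.3 and 11.3, and CG42245 one with folds of 42.4 and 14.3.

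The UAS-HA-Zld list put other sites first, and its top 10 shared no site with the brat top 10. With cuts of 10 among 2490 sites, this says little about how far the lists differ. The site in Smr stood at place 12 by brat −log10 q and at 10 by UAS-HA-Zld −log10 q, and 1 site in tara at 18 and 5. Behind the UAS-HA-Zld top 10 stood only 6 UAS-HA-Zld peaks, because wide peaks of that list matched several brat peaks. Inside psq, which encodes a BTB-domain protein that binds GAGA repeats, 1 UAS-HA-Zld peak of 4551 bp with 8 summits and a fold of 30.1 on 4471 fragments covered 3 brat peaks, whose folds were 6.58, 6.2 and 2.40 on 207, 571 and 89 fragments. Inside tna, a gene of the trithorax group, a UAS-HA-Zld peak with a fold of 29.0 on 3997 fragments overlapped brat peaks with folds of 13.8 and 5.54, the former over 51.2% of its bases. Inside tara, another gene that acts with chromatin regulators, a peak with a fold of 19.2 on 4975 fragments overlapped brat peaks with folds of 16.2 and 6.15. Blimp-1, a zinc-finger repressor that times responses to ecdysone, held the site with the highest UAS-HA-Zld fold, 37.7 on 3254 fragments, at 3L, 5636733 to 5638189. The brat peak there had a fold of 4.94 on 388 fragments. Its strongest summit lay 161 bp from the nearest UAS-HA-Zld summit. The same distances, in the order given, were 21, 14 and 172 bp in psq, 113 and 78 bp in tna and 6 and 0 bp in tara. Each UAS-HA-Zld fold is that of the strongest summit of the matched peak, which can lie elsewhere in it. The site in pros, the gene of Prospero, which acts as neuroblast daughters stop dividing, had folds of 11.0 in brat and 17 with UAS-HA-Zld. The corepressor gene Smr held one with 21.1 and 20.4.

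**Figure D1:**
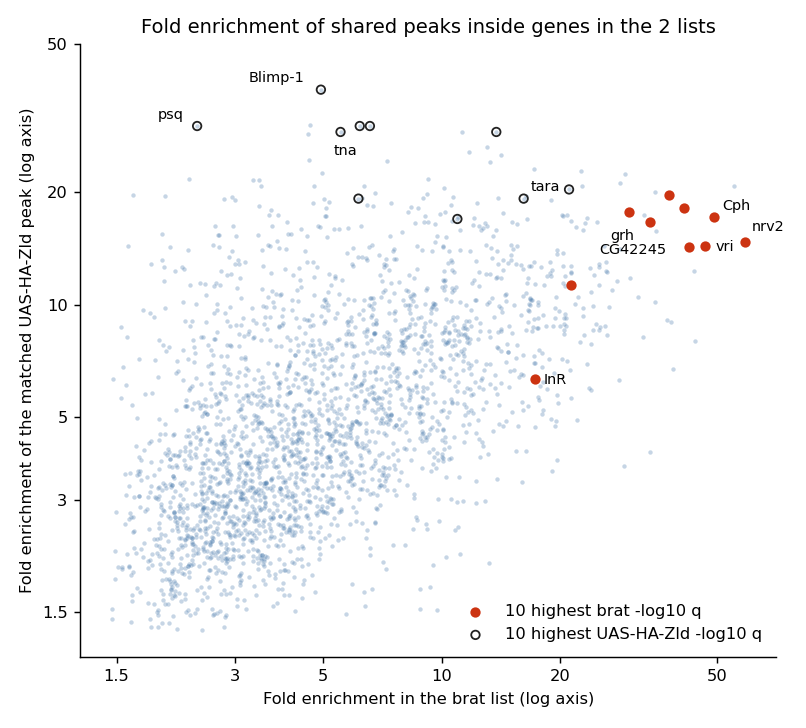
Fold enrichment of each of the 2490 shared sites inside genes in the brat list (x, log axis) and of its matched peak in the UAS-HA-Zld list (y, log axis), with no error bars because there is 1 list per condition. Filled red points are the 10 sites with the highest brat −log10 q, which lie at folds of 17.3 to 58.8 in brat, and open circles are the 10 with the highest UAS-HA-Zld −log10 q, which lie at brat folds of 2.40 to 21.1.

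Across the 2490 sites the median fold was 4.44 in brat (quartiles 2.89 and 7.82) and 4.66 with UAS-HA-Zld (3.02 and 7.93). The median pileup was 211 fragments in brat and 336 with UAS-HA-Zld, over local backgrounds of 45.9 and 68.7 fragments. Spearman's rho between the folds of the lists was 0.55 over the 2490 sites. It is a description only, since both lists share the genome's background (rho 0.87 between the backgrounds) and some sites share a UAS-HA-Zld peak. Of the 249 sites in the top 10% by brat fold, 82 (32.9%) were also in the top 10% by UAS-HA-Zld fold, against 10% of all sites.

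The order of strength between kinds of location differed between the lists, for the same pairs of peaks. In the brat list the median fold was 4.73 for the 2531 shared peaks at gene ends, 4.44 inside genes and 3.78 for the 876 shared peaks between genes. In the UAS-HA-Zld list the partners of those peaks stood in the opposite order, with 4.09 at gene ends, 4.66 inside genes and 4.83 between genes. Median pileups stood in the same orders, 225, 211 and 174 fragments in brat and 284, 336 and 340 with UAS-HA-Zld. A fold of at least 10 was reached in brat by 17.9% of shared peaks at gene ends (Wilson 95% interval 16.5 to 19.5), 17.4% inside genes (16.0 to 18.9) and 9.36% between genes (7.61 to 11.5). With UAS-HA-Zld the shares were 9.44% (8.36 to 10.6), 15.0% (13.6 to 16.4) and 17.4% (15.0 to 20). A UAS-HA-Zld peak counts here once for each brat peak matched to it. Its UAS-HA-Zld peak was shared with another brat peak for 5.18% of sites inside genes, 1.94% at gene ends and 5.14% between genes. Intervals cover counting error only and treat such repeats as separate, and no test between conditions was possible with 1 list each.

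Within each list the unmatched peaks give the frame for these sites. Of the brat peaks inside genes 79.9% were shared, against 77.0% at gene ends and 79.3% between genes. Of the UAS-HA-Zld peaks inside genes 63.7% were shared (62.2 to 65.1), against 79.5% at gene ends (78.1 to 80.9) and 51.2% between genes (48.8 to 53.5). With the 3116 brat peaks inside genes split into 5 equal groups by −log10 q, from weakest to strongest 55.4%, 70.3%, 82.5%, 93.9% and 97.4% were shared. The 626 brat peaks inside genes without a match had a median fold of 2.80 and a median width of 382 bp. These are the values that the selection used, so they support nothing further. Close to the distance limit, the 92 sites more than 500 and up to 550 bp from a gene end had a median brat fold of 7.09, and the 126 shared peaks just outside it, up to 50 bp closer to the end, one of 5.44.

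Positions in both lists were close, but the selection required overlap and the nearest of all summits was taken. The distances and shared bases are thus a description and no sign of agreement by themselves. From the strongest brat summit to the nearest summit of a matched UAS-HA-Zld peak the median distance was 21 bp (quartiles 8 and 50), and 75% of the sites had one within 50 bp (73.3 to 76.7). The summits fell on the same base at 42 sites and lay more than 200 bp apart at 76. Between the strongest summits of both peaks the distance was larger, with a median of 30 bp, an upper quartile of 127 bp and a 90th percentile of 381 bp. At gene ends the median distance was 14 bp and between genes 25 bp. Weak sites were less close, with a median of 36 bp in the weakest 498 sites by brat −log10 q against 15 bp in the strongest 498. At least 50% of the brat peak was shared for 92.2% of the sites (91.1 to 93.2), and the whole of it for 34.5%. A match to 2 or more UAS-HA-Zld peaks was seen at 111 sites, and 129 sites shared their UAS-HA-Zld peak with another brat peak. Only 1 site had fewer than 100 shared bases, with a brat fold of 1.58.

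Many sites inside genes were broad. Their median width was 662 bp in brat, against 646 bp at gene ends and 567 bp between genes. The lead over gene ends rested on the 439 sites up to 1000 bp from one, with a median of 1060 bp: sites more than 1000 bp away had a median of 620 bp, and those whose whole interval lay more than 500 bp away one of 606 bp. Among all sites inside genes 28.4% spanned at least 1000 bp (26.7 to 30.2), against 21.5% (20 to 23.2) and 15.1% (12.9 to 17.6). Of the sites inside genes 49.4% had 2 or more brat summits, against 53.3% at gene ends and 37.1% between genes. The widest was a peak of 5678 bp with 12 summits inside Raf, the gene of a kinase of the Ras pathway, at X, 2303162 to 2308839. Next by width came peaks in the Polycomb group gene ph-p (4546 bp), in the zinc-finger gene sbb (4393 bp, 9 summits), in chic (4203 bp) and in CG10417 (4054 bp). Peaks with 9 or 10 summits also lay in arg (10), in skd, a subunit gene of the Mediator complex (9), and in the HMG-box gene Dsp1 (9), with CG12547 and lncRNA:CR43857 tied at 9. The intervals in ph-p, chic, CG10417, arg, skd and Dsp1 cover a gene end, and that in CG10417 spans the whole gene. Those in Raf and sbb cover none. Width went with strength: the median rose from 408 bp in the weakest 498 sites by brat −log10 q to 1300 bp in the strongest 498.

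Sites lay throughout the interiors of genes, most densely near the ends. The territory open to the rule, bases inside a gene and more than 500 bp from every gene end, measured 74.8 Mb on the 5 arms and held 33.3 sites per Mb. Of the sites 43.7% lay more than 5 kb from every gene end (41.7 to 45.6) and 23.8% more than 10 kb (22.2 to 25.5). Density was highest from 500 to 1000 bp, with 41.6 sites per Mb, fell to 29.4 from 1 to 2 kb, and was 33.5 from 2 to 5 kb, 36.0 from 5 to 10 kb and 34.7 from 10 to 20 kb. Beyond 20 kb it was 23.4 per Mb. The sites nearest to gene ends were also the strongest and broadest, with a median brat fold of 6.72 and a median width of 1060 bp at 500 to 1000 bp, against 4.04 to 4.56 and 586 to 645 bp in the bins beyond 1000 bp. With UAS-HA-Zld the corresponding medians were 5.26 against 4.43 to 4.62. Some part of the interval came within 500 bp of a gene end at 402 sites, and the interval covered one at 207.

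UAS-HA-Zld-only peaks inside genes, placed by the same rule, had another profile. They rose from 16.3 per Mb at 500 to 1000 bp to 25.3 at 5 to 10 kb, and stood at 14.2 beyond 20 kb. Brat-only peaks kept to 8.05 to 9.79 per Mb up to 20 kb and fell to 4.98 beyond. Arm X held 41.0 shared sites per Mb of open territory, against 30.3 to 34.6 on the other 4 arms. On X 50.3% of shared peaks lay inside genes (47.5 to 53.1), against 36.3% to 42.6% elsewhere. The density of UAS-HA-Zld-only peaks on X, 22 per Mb, was close to the 21.5 on 2L and 21.0 on 3L, and above the 18.3 on 2R and 17.1 on 3R.

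**Figure D2:**
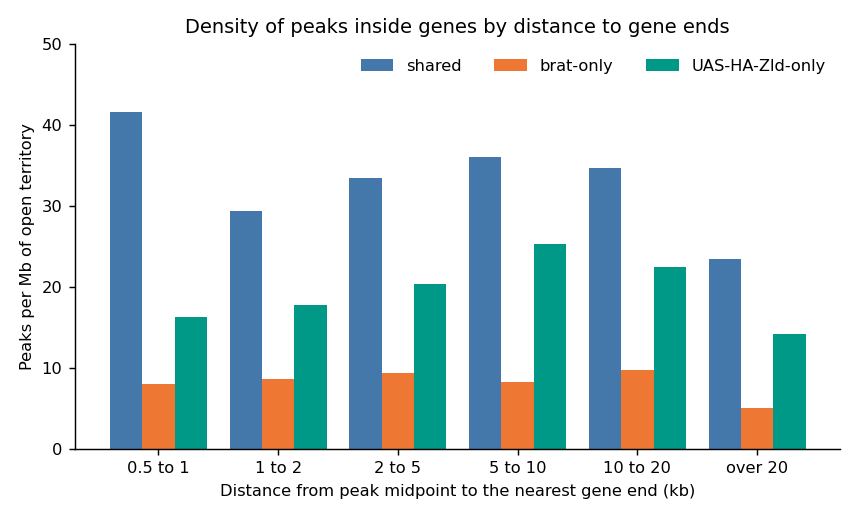
Peaks inside genes per Mb of open territory (y) by the distance of the peak midpoint from the nearest gene end in kb (x), for shared sites, brat-only peaks and UAS-HA-Zld-only peaks. Shared sites are densest at 0.5 to 1 kb with 41.6 per Mb, while UAS-HA-Zld-only peaks are densest at 5 to 10 kb with 25.3 per Mb.

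The 2490 sites lay in 1087 genes, counting for each site the shortest protein-coding gene around its midpoint. Protein-coding genes hosted 2382 sites, and 47 noncoding genes the others. Of the 10743 protein-coding genes with open territory 1040 held a site, which is 9.68%, the background for all counts of genes below. A single site was found in 649 host genes, while 33 genes with 10 or more sites held 444 of them, and 185 genes sufficed to hold 50% of all sites. Neighbouring sites in the same gene had a median spacing of 2671 bp.

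Long genes and genes with several transcripts held most of the sites. Hosts had a median length of 17.1 kb, against 2.84 kb for all protein-coding genes with open territory. A site was found in 1.79% of genes of 1 to 5 kb, 14.3% at 5 to 10 kb, 26.4% at 10 to 20 kb, 41.0% at 20 to 50 kb, 56.1% at 50 to 100 kb and 63.0% above 100 kb (52.1 to 72.7). Per Mb of open territory the rise ended early, with 15.4, 31.5, 37.6, 40.9, 39.1 and 26.0 sites. Among genes over 20 kb, those with 1 RefSeq transcript held 7.32 sites per Mb, those with 2 to 3 held 25.7, those with 4 to 7 held 49.0 and those with 8 or more held 43.6. Brat-only peaks in the same genes had densities of 2.58, 6.59, 11.5 and 10.6, and UAS-HA-Zld-only peaks 9.05, 18.0, 29.7 and 22, so this gradient was not confined to shared sites. The part of alternative promoters in it was not tested.

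**Figure D3:**
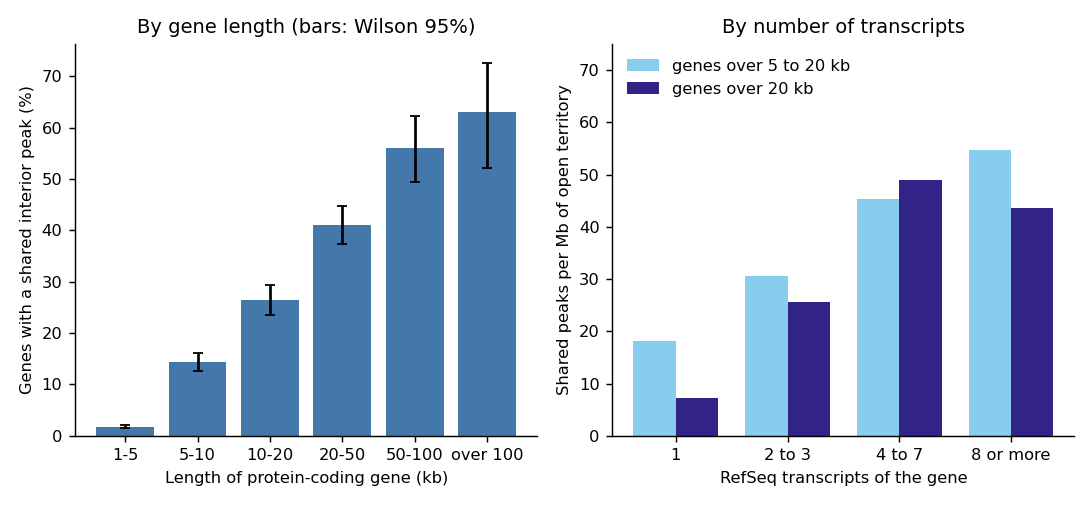
Left, percent of protein-coding genes that hold a shared site (y) by gene length in kb (x), with Wilson 95% intervals that cover counting error only; right, shared sites per Mb of open territory (y) by the number of RefSeq transcripts of the gene (x), for genes of 5 to 20 kb and over 20 kb. The share rises from 1.79% to 63.0% with length, and in genes over 20 kb the density is 7.32 per Mb with 1 transcript and 49.0 with 4 to 7.

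The gene with the most sites was jing, a zinc-finger factor gene of 120 kb on 2R, with 23 shared sites, 1 brat-only and 19 UAS-HA-Zld-only peaks. Its shared sites had brat folds of 1.75 to 13.8 (median 3.44) and UAS-HA-Zld folds of 3.14 to 17.3 (median 8.84). Tet, the fly gene of the TET dioxygenase family, followed with 20 sites, 6 brat-only and 2 UAS-HA-Zld-only peaks, and its medians were 5.23 in brat and 4.87 with UAS-HA-Zld. The gene tara packed 19 sites into 34.7 kb, 564 per Mb of its open territory, with brat folds of 1.72 to 19.6. The genes EcR, for the ecdysone receptor, and Eip75B, for a nuclear receptor induced by ecdysone, held 17 sites each. EcR had 0 brat-only and 2 UAS-HA-Zld-only peaks, and Eip75B 2 and 8.

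Also among the first 10 were Mnt and Tlk, with 16 sites each. Mnt encodes a partner of Max that opposes Myc, and its 29.9 kb held 554 sites per Mb and 0 unmatched peaks of either list. Tlk, a kinase gene linked to chromatin assembly, had brat folds of 1.89 to 24.7. The Dpp pathway factor gene shn and the Notch coactivator gene mam held 15 each, mam together with 6 brat-only peaks. The chromatin regulator gene tou held 14, with a median brat fold of 7.87, the highest of these 10 genes. Other genes with 14 sites were psq, the homeobox gene hth, Mur2B and the noncoding genes lncRNA:CR31386 and lncRNA:CR32773.

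**Figure D4:**
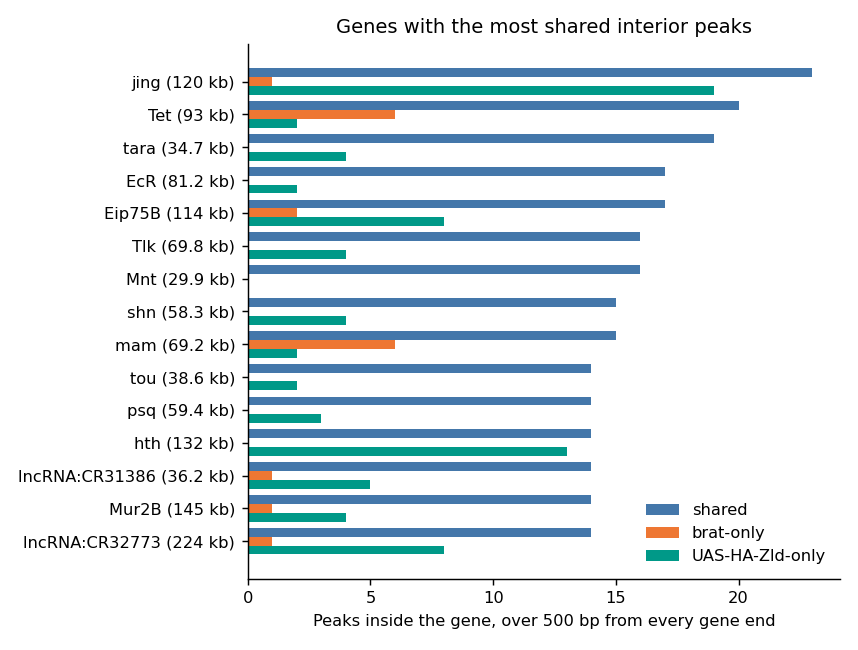
Numbers of shared, brat-only and UAS-HA-Zld-only peaks (x) inside each of the 15 genes with the most shared sites (y, gene length in kb in parentheses). The gene jing has 23 shared and 19 UAS-HA-Zld-only peaks, while Mnt has 16 shared and 0 unmatched peaks.

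For gene groups, 17 lists were used, with 354 distinct genes with open territory, and 155 of them held 547 sites. Because long genes hold more sites, each list is given with its sites per Mb of open territory, where all protein-coding genes had 32.6. Density per Mb also varied with gene length and transcript number, as given above. The median gene length of the lists ran from 2.83 kb (early embryo targets) to 45.3 kb (ecdysone response), against 2.84 kb for all. The values of all genes are therefore not matched to the lists for length or transcripts. The median brat fold over all sites in protein-coding genes was 4.44, and the median UAS-HA-Zld fold 4.64. The lists were chosen with earlier results of these data known, overlap in part, and were not tested as sets. The strongest site of a gene means here the one with the highest brat −log10 q. Some genes named below as having no site have little open territory, such as danr with 0.83 kb and gcm with 1.11 kb. In such genes the lack of a site says little about binding.

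Stem cell and progenitor genes were dense in sites, but unevenly so. Of 18 neuroblast self-renewal and type II genes 9 held a site, with 47 sites in all, 131 per Mb, and a median brat fold of 5.28. They were led by grh with 11 sites, brat itself with 10, pnt, an ETS factor gene, with 8 and pros with 7. The strongest site in brat, at 2L, 19136275 to 19139186, had a fold of 16.5 in brat and one of 17 for UAS-HA-Zld. The gene zld held 5, the strongest with folds of 25.9 and 14.4. No site lay in dpn, wor, esg, sna, ase, btd, tll or mira, which have only 0.235 kb (dpn) to 2.37 kb (btd) of open territory each. Neither did klu hold one, with 27 kb of it. In this list 33 UAS-HA-Zld-only peaks stood beside 4 brat-only ones, and over all protein-coding genes 1402 beside 611.

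Intermediate progenitor genes held 32 sites in 9 of 13 genes, 92.5 per Mb. The chromatin remodelling subunit gene osa had 9, with folds of 20.3 in brat and 17.3 with UAS-HA-Zld at the strongest, the transcription factor gene ab 5, and erm and ham, which restrict progenitors, 3 each. No site lay in dac, scro, Fer1 or bab2. Temporal genes, which set the age of neuroblasts, held 80 sites in 13 of 20 genes, 110 per Mb. Among them hth had 14, br 13, and the RNA-binding protein genes Syp and Imp, which mark late and early neuroblasts, 9 and 8. The strongest hth site lay 58300 bp from every gene end, with folds of 11.0 and 17.2. The temporal genes hb, Kr, cas, danr, slp1, slp2 and lin-28 had none.

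Ecdysone response genes were among the most often hit, with 86 sites in 12 of 16 genes, 122 per Mb. Besides EcR and Eip75B they were led by br, the Broad factor gene, with 13 sites, the strongest with folds of 28.4 and 21.2. The coactivator gene tai had 8. Eip93F, the gene of a late factor, held 5, including 1 at 3R, 21970908 to 21972599 with a brat fold of 21.2 and a UAS-HA-Zld fold of 6.69. The genes usp, Hr3, E23 and Hr38 had none.

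Genes of signalling pathways held fewer sites per list than the ecdysone genes, but on less open territory, 0.323 to 0.433 Mb against 0.707 Mb. Per Mb the Notch list came close to the 122 of the ecdysone list. In the Notch pathway 6 of 18 genes held 37 sites, 115 per Mb, or 85.6 without mam. The receptor gene N had 8 sites, the strongest with folds of 35.1 in brat and 15.7 with UAS-HA-Zld, the ligand gene Delta and the ligase gene neur 5 each, and numb 3. The interval of that strongest N site covers a gene end. The gro site, with folds of 25.1 and 12.8, lay 533 bp from a gene end and its interval covers one. Of 20 EGF and FGF genes 10 held 30 sites, 79.9 per Mb, led by pnt, the repressor gene aop with 5, the receptor gene Egfr with 4 and the ligand gene spi with 3. In Wnt, Dpp and Hedgehog signalling 11 of 23 genes held 26 sites, 60.1 per Mb, among them the receptor genes tkv (6), fz2 (5) and fz (4) and the ligand gene dpp (2), while wg and hh had none.

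Chromatin and cell cycle genes held strong sites. In the chromatin and corepressor list 13 of 36 genes held 50 sites, 121 per Mb, with a median brat fold of 6.27 and a median UAS-HA-Zld fold of 7.16. They were led by psq with 14 sites, Smr with 11, and the Polycomb group gene Psc and the remodeller gene kis with 4 each. The strongest Psc site had folds of 17 and 8.69, and its interval covers a gene end. The genes brm, mor, E(z) and Pc held none. Of 20 cell cycle genes 9 held 22 sites, 205 per Mb, the highest density of the 17 lists, or 176 without E2f1. It rests on the smallest open territory of the lists, 0.107 Mb. The genes E2f1, whose product activates S phase genes, with 9 sites, and CycE, which drives entry into S phase, with 6 held most of them. CycA and the phosphatase subunit gene tws held 1 each, with brat folds of 17.6 and 18.4. The CycA interval covers a gene end. The strongest CycE site had folds of 8.57 in brat and 16.6 with UAS-HA-Zld.

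Genes of neuronal wiring and synapses stood near or below the density of all genes. In the axon guidance and cell adhesion list 25 of 40 genes held 80 sites, but at 36.3 per Mb, near the 32.6 of all genes, led by the cadherin gene CadN with 10, kirre with 9, Ten-a with 8 and Sema1a with 5. The synapse and ion channel list held 18.5 per Mb, 32 sites in 14 of 38 genes. It includes the RNA-binding protein genes bru3, fne, Rbp9 and elav, which held 9, 7, 2 and 1 of these sites. The sodium channel gene para held 3. The transmitter genes ChAT, VAChT, VGlut and Gad1 had none. Polarity and cytoskeleton genes held 28 sites in 13 of 28 genes, 42.6 per Mb, led by sdt with 6, shot with 4, and stan and par-1 with 3 each.

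Of 13 glial genes 5 held 12 sites, 91.7 per Mb, which fell to 51.8 without pnt, whose 8 sites count in 3 lists. The others were nrv2, Eaat1, Indy and loco with 1 each, and repo and gcm had none. Muscle genes held 7 sites in 4 of 15 genes, 17.3 per Mb, or 9.91 without Msp300 with its 4; Tm1, Mef2 and Zasp66 had 1 each. In fat body, germline and trachea only trh, a tracheal regulator, of 17 genes had sites, 2 in number, which gave the list 14.8 per Mb.

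Genes known as early embryonic targets of Zld held few such sites, at about the density of all protein-coding genes. Of 29 of them with open territory 4 held a site, 13.8% (5.50 to 30.6), against 9.68% of all protein-coding genes, and their 7 sites came to 32.8 per Mb, against 32.6 for all. Their median length of 2.83 kb was close to the background's 2.84 kb. The 4 genes with a site, 6.65 to 31.5 kb long, were dpp, vnd and sog with 2 each and the pair-rule gene run with 1. Peaks within 500 bp of a gene end are not counted here, so binding close to the ends of short genes is not covered. The run site had folds of 5.13 and 15.1 in the same order of lists. Of 8 Hox genes 4 held 7 sites, 27.1 per Mb: Antp had 3, Abd-B 2 and abd-A and Scr 1 each. The strongest was in Abd-B, with folds of 15.0 and 14.4, and lab, pb, Dfd and Ubx had none.

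**Figure D5:**
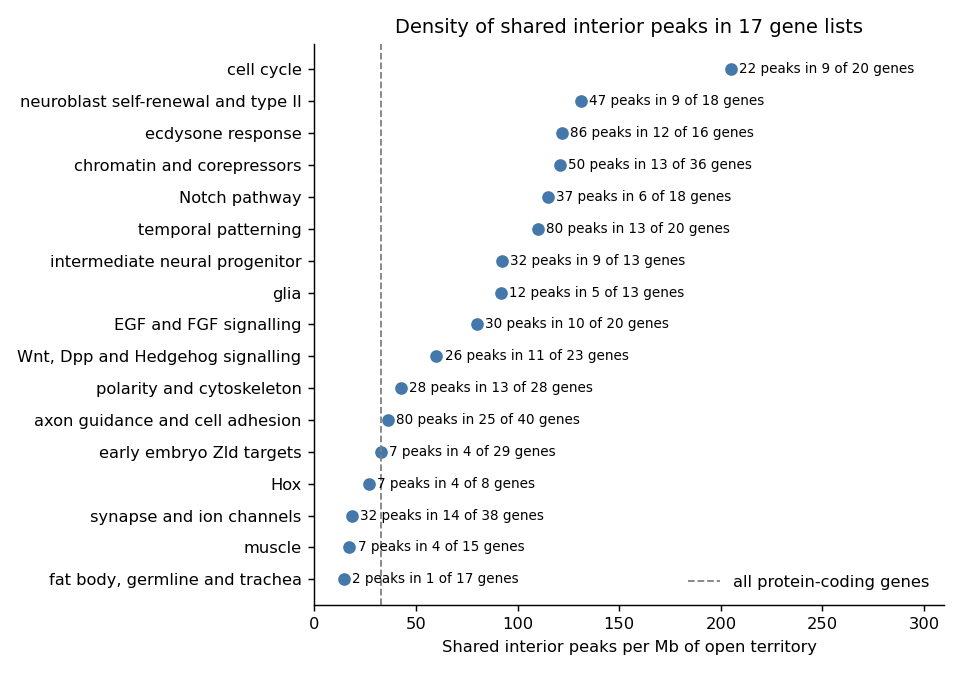
Shared sites inside genes per Mb of open territory (x) for 17 gene lists (y), with the number of sites and of genes holding one beside each point and a dashed line at 32.6 per Mb for all protein-coding genes. Cell cycle genes stand at 205 per Mb and the synapse and ion channel list, which includes RNA-binding protein genes, at 18.5.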

How the data were processed

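The submitters' processing notes name Bowtie2, MACS2, deepTools 3.5.1 and build dm6. The sources used here do not state the MACS2 control, replicate pooling or filters. The deposited lists (1 per condition) hold a score, a fold enrichment (ratio), and −log10 p and −log10 q values for each summit. A peak was 1 distinct interval with the values of its summit of highest −log10 q. Its partner was the UAS-HA-Zld peak sharing most bases. Running peak numbers show 19.5% of peaks absent from each list, so some peaks are not analysed here. Pileup and background were solved from the deposited fold and −log10 p values under a Poisson score, which gave whole pileups for 100% of peaks within a relative tolerance of 0.0001; the solver was tested on simulated data. The lowest background was 22.6 fragments for brat and 28.8 for UAS-HA-Zld. Genes came from the RefSeq table of the same assembly (17684 genes on 6 arms). Of the listed gene names 6 were matched through synonyms and 2 were left out. No test was run, and shares carry Wilson 95% intervals. Named are the 10 sites with the highest −log10 q in each list, the 5 widest and the 5 with most summits, the 10 genes with most sites and up to 4 genes of each list with most sites; genes named as having none, and others beyond this, were chosen after their values were seen. Members and lists were chosen with earlier results of these data known. Motifs were planned but not searched because no genome sequence was used. Computing used Python 3.11.15, numpy and pandas.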

Additional observations from a re-analysis of the deposited data

How the results depend on the processing

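With 1 list per condition no replicate could be left out. No paired analysis was possible because only 1 list per condition, without replicate columns, was used. Of 80 alternative values 52 stayed within the 95% interval of the reported share or median, or within 1.5 times for a count. The number of sites did so under all 10 alternatives. With −log10 q of at least 10, the median fold was 5.03 in brat and 5.14 in UAS-HA-Zld, the median summit distance 19 bp, the median width 716 bp and the share with 2 or more summits 51.8%. With −log10 q of at least 5, the brat fold was 4.64 and the width 680 bp. With lists cut to equal lengths, the folds were 4.77 and 5.06 and the width 690 bp. At more than 1000 bp from every gene end, 34.8% of shared peaks lay inside genes, with a brat fold of 4.20, a width of 620 bp and 44.5% with 2 or more summits. At more than 250 bp these values were 55.9%, 4.72, 695 bp and 53.9%, the summit distance was 19 bp and 1695 genes held a site. With at least 50% of the brat peak shared, the UAS-HA-Zld fold was 4.85, the width 633 bp and the share with 2 or more summits 46.0%. With the whole interval more than 500 bp from every gene end, an alternative chosen after seeing the data, 35.4% lay inside genes, with folds of 4.11 and 4.45, a width of 606 bp and 42.8% with 2 or more summits.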

Other observations

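The sites farthest from any gene end, singled out after their values were seen, lay in fru, a gene of sex-specific nervous system development with several promoters. The site at 3R, 18478938 to 18480011 lay 65.2 kb from every gene end, with a brat fold of 8.92 and a UAS-HA-Zld fold of 8.26. Another fru site, at 3R, 18478147 to 18478672, had folds of 4.91 and 16.1.

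Of the UAS-HA-Zld peaks, 50 were the partner of 2 or more of these sites and 5 the partner of 3. Besides the one in psq, those with 3 matched sites in sbb, Syp and Pli, with UAS-HA-Zld widths of 3569, 4187 and 1760 bp. The other, of 8252 bp, matched 1 site in elav and 2 in arg.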
